A study of Homo sapiens with 4 samples.

Results

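Arsenic trioxide was given to cells together with the kinase inhibitor GSK458, and the RNA of that culture was set against the RNA of a culture given GSK458 without arsenic. Genes entered the comparison where the deposited FPKM values, which are fragment numbers scaled to transcript length and library size, averaged at least 1 over the 4 libraries of the study, and small RNA symbols were left out. This took in 12202 of the 26255 gene symbols measured. A further 58 symbols reached that mean but belonged to small RNAs.

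All cultures were of TOV21G, an established line from a clear cell carcinoma of the ovary, and 1 poly(A)-selected RNA library was made from each. The As2O3+GSK458 culture had 1 µM As2O3 (arsenic trioxide) together with 0.1 µM GSK458 for 48 h. The GSK458 culture had 0.1 µM GSK458 for 48 h, the As2O3 culture had 1 µM As2O3 for 48 h, and the control culture had no drug, with no time in its label. Since every library comes from 1 line, 1 dose and 1 culture, no value has a replicate error and no difference was tested. Differences are log2(FPKM + 1) in the As2O3+GSK458 library minus log2(FPKM + 1) in the GSK458 library, a scale that understates the differences of low genes. The same difference between As2O3 and control, a pair that shares no library with the first, stands beside it as the difference measured without GSK458.

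As2O3 binds thiol groups and has its main clinical use in acute promyelocytic leukaemia. Thiol-reactive compounds modify KEAP1, which otherwise marks the transcription factor NRF2 for degradation. NRF2 then binds, with small MAF proteins, to antioxidant response elements of genes for haem breakdown, glutathione and thioredoxin, while BACH1 represses some of the same genes. GSK458 inhibits PI3K and mTOR, kinases that pass growth factor and nutrient signals to protein synthesis and to entry into the cell cycle. Genes of mitosis, which the DREAM, MYB-MuvB and FOXM1 complexes regulate, are transcribed late in the cycle. How many cells were dividing is not measured by these libraries.

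Between 16157 and 16409 symbols were above 0 in a library, and the 10 most abundant genes held 9.51% to 11.5% of the summed FPKM. Read numbers are unknown. In low genes 1 read was worth 1.27 times as many FPKM in the As2O3+GSK458 library as in the GSK458 library. This rests on 373 of 1709 genes below 0.5 FPKM that shared 1 ratio after rounding to 3 decimals. Only if FPKM were scaled to total reads would the depth of the As2O3+GSK458 library be 78.9% of that of the GSK458 library. How library size was scaled is not given. In bulk RNA, fewer cells of a type and less RNA per cell cannot be told apart.

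Few genes were far apart. Of the 12202 genes, 60 were at least 2-fold higher with As2O3+GSK458 than with GSK458, which is 0.492% of those compared, and 22 were at least 2-fold lower, or 0.18%. The differences were centred, with 50.5% of genes above 0, 49.4% below 0 and a median of 0.00. Between As2O3 and control, 1.95% of the genes were at least 2-fold higher and 1.29% at least 2-fold lower. Antioxidant enzymes made up 17 of the 60 higher genes and genes of mitosis and chromosomes 15, while 9 stood in other lists and 19 in none. The antioxidant lists held 59 of the 12202 genes compared and the mitosis and chromosome lists 89. None of the 22 lower genes belonged to either group, which so small a share of all genes would also give. Among genes of at least 5 FPKM in either library, those just inside the 2-fold line were ADM, ABCB6 and DLGAP5, each at 1.01. Just outside lay the small heat shock protein CRYAB, whose 1.00 is below the line before rounding, then DIRAS2 and NR4A1 at 0.99. On the lower side NCCRP1 at −1.01 was just inside, and CXCL1 at −0.98 just outside.

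**Figure D1:**
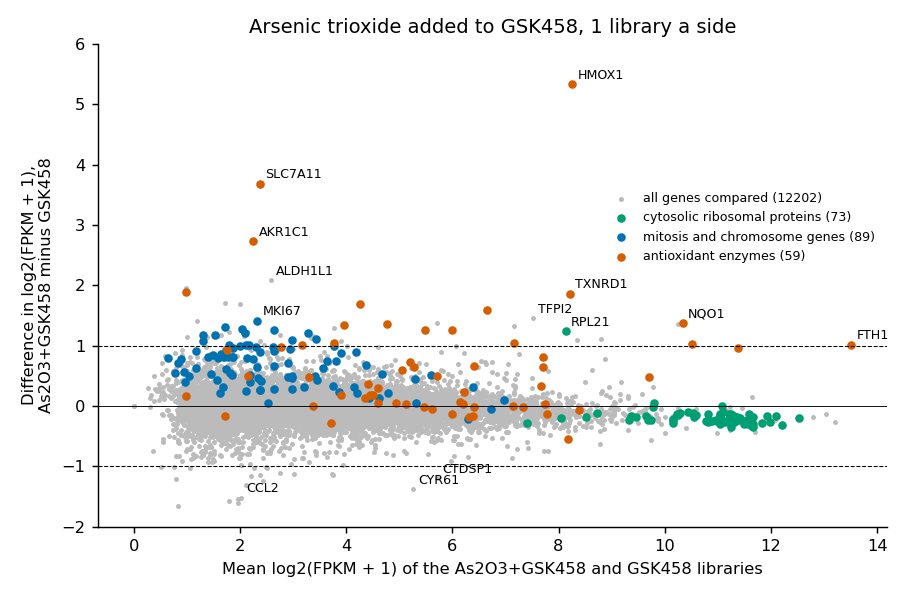
Difference in log2(FPKM + 1), As2O3+GSK458 minus GSK458, against the mean log2(FPKM + 1) of both libraries, 1 point a gene, with dashed lines at 2-fold. HMOX1 lies at 5.34 and SLC7A11 at 3.68, far above the other genes, the mitosis and chromosome genes form a band above 0 at low levels, and the ribosomal proteins lie just below 0 at the highest levels.

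The enzyme that breaks down haem showed the widest gap of any gene compared. HMOX1, haem oxygenase, stood at 1949 FPKM in the As2O3+GSK458 library and 47.2 FPKM in the GSK458 library, a ratio of 41.3 and a difference of 5.34. Without GSK458 it stood at 1375 FPKM with As2O3 and 30.3 FPKM in the control, a ratio of 45.4 and a difference of 5.46. Both libraries with arsenic were high and both without it low, and HMOX1 had the same order of ratio on either background. The list of haem breakdown and iron storage had 8 of 10 genes higher and 3 at least 2-fold, with a median of 0.61 (0.80 between As2O3 and control). FTH1, the ferritin heavy chain that stores iron, had 16546 FPKM with As2O3+GSK458 and 8171 FPKM with GSK458. Its value is uncertain because processed pseudogenes share its sequence. FTL, the light chain, had 3704 FPKM with As2O3+GSK458 and 1892 FPKM with GSK458, a difference of 0.97. For both ferritin chains the difference was larger without GSK458, 1.80 for FTH1 and 1.69 for FTL. ABCB6, a porphyrin transporter, stood at 11.7 FPKM with As2O3+GSK458 and 5.31 FPKM with GSK458, and SLC48A1, a haem transporter, at 46.7 FPKM with As2O3+GSK458 and 27.7 FPKM with GSK458. The biliverdin reductase BLVRB was level at 73.4 FPKM with As2O3+GSK458 and 71.3 FPKM with GSK458.

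Cystine import and glutathione synthesis, which supply the main thiol buffer of the cell, were higher too. SLC7A11, the cystine carrier, had 17.6 FPKM in the As2O3+GSK458 library and 0.448 FPKM in the GSK458 library, and 11.2 FPKM with As2O3 against 0.814 FPKM in the control. Its GSK458 value was the lowest of the 4 libraries and its As2O3+GSK458 value the highest, so that the difference was 3.68 with GSK458 and 2.75 without. At such low levels the size rests on the pseudocount, and that of SLC7A11 with GSK458 was 5.01 with 0.1 FPKM added and 2.05 with 5 FPKM. SLC3A2, the partner chain of that carrier, differed by 0.50. Of the 12 genes compared, 11 were higher and 4 at least 2-fold, with a median of 0.49 (0.67 between As2O3 and control). Both subunits of glutamate-cysteine ligase, which limits the rate of glutathione synthesis, were among the 4. The modifier subunit GCLM stood at 33.4 FPKM with As2O3+GSK458 and 9.61 FPKM with GSK458, and the catalytic subunit GCLC at 23.7 FPKM with As2O3+GSK458 and 8.68 FPKM with GSK458. CTH, which makes cysteine from cystathionine, stood at 18.7 FPKM with As2O3+GSK458 and 8.57 FPKM with GSK458. The later steps differed less, with 0.36 for the synthetase GSS and 0.60 for the reductase GSR.

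In the thioredoxin system, which reduces protein disulfides with NADPH, high values were held by 2 enzymes. TXNRD1, thioredoxin reductase, had 563 FPKM with As2O3+GSK458 and 154 FPKM with GSK458, a difference of 1.86, and 470.5 FPKM with As2O3 and 60.6 FPKM in the control, a difference of 2.94. SRXN1, sulfiredoxin, which repairs over-oxidised peroxiredoxins, had 43.0 FPKM with As2O3+GSK458 and 16.1 FPKM with GSK458. The list as a whole was balanced, with 8 of 15 genes higher and a median of 0.04. PRDX1, an abundant peroxiredoxin, stood at 988 FPKM with As2O3+GSK458 and 706 FPKM with GSK458. TXNIP, which binds and inhibits thioredoxin, was lower, at 237 FPKM with As2O3+GSK458 and 347 FPKM with GSK458, whereas it was higher with As2O3 at 388 FPKM than in the control at 184 FPKM.

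Enzymes that make NADPH, and those that use it to reduce quinones and carbonyls, were higher as well. Of 9 genes for NADPH supply 6 were higher, with a median of 0.31 (0.94 between As2O3 and control). The transketolase TKT, of the pentose phosphate pathway, had 2086 FPKM with As2O3+GSK458 and 1017 FPKM with GSK458. Of 13 genes compared in the list of quinone, aldo-keto and carbonyl reductases, 12 were higher and 6 at least 2-fold. The median of 0.93 was the highest of any list with at least 6 genes. NQO1, a quinone reductase, stood at 2089 FPKM with As2O3+GSK458 and 801 FPKM with GSK458. UGDH, a member of that list that makes UDP-glucuronate and is not a reductase, had 68.6 FPKM with As2O3+GSK458 and 28.2 FPKM with GSK458. The aldo-keto reductases AKR1C1 and AKR1C3 had 11.2 and 173 FPKM with As2O3+GSK458, and 0.843 and 56.6 FPKM with GSK458. Without GSK458, AKR1C1 had 20.1 FPKM with As2O3 and 5.13 FPKM in the control, so its GSK458 value was the lowest. The difference of AKR1C1 with GSK458 was 2.73, and 3.59 or 1.48 with 0.1 or 5 FPKM added. The sequences of both genes are close to each other and to AKR1C2, so how the authors' counting split them is uncertain. The sixth gene, the aldose reductase AKR1B1, had 205 FPKM with As2O3+GSK458 and 99.1 FPKM with GSK458.

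Over the 5 antioxidant lists together, 45 of 59 genes were higher and 14 lower, with a median of 0.48 against 0.00 for all genes. All 17 that were at least 2-fold higher were also higher with As2O3 than in the control, 16 of them at least 2-fold. The remaining gene, AKR1B1, reached 0.94 there. For 33 of the 59 the difference was smaller with GSK458 than without, and for 26 it was larger. Over all genes compared the quartiles were −0.13 and 0.13 with GSK458 and −0.23 and 0.25 without, so the pair without GSK458 was wider in general. The share of all genes with a smaller difference with GSK458 was not counted.

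**Figure D2:**
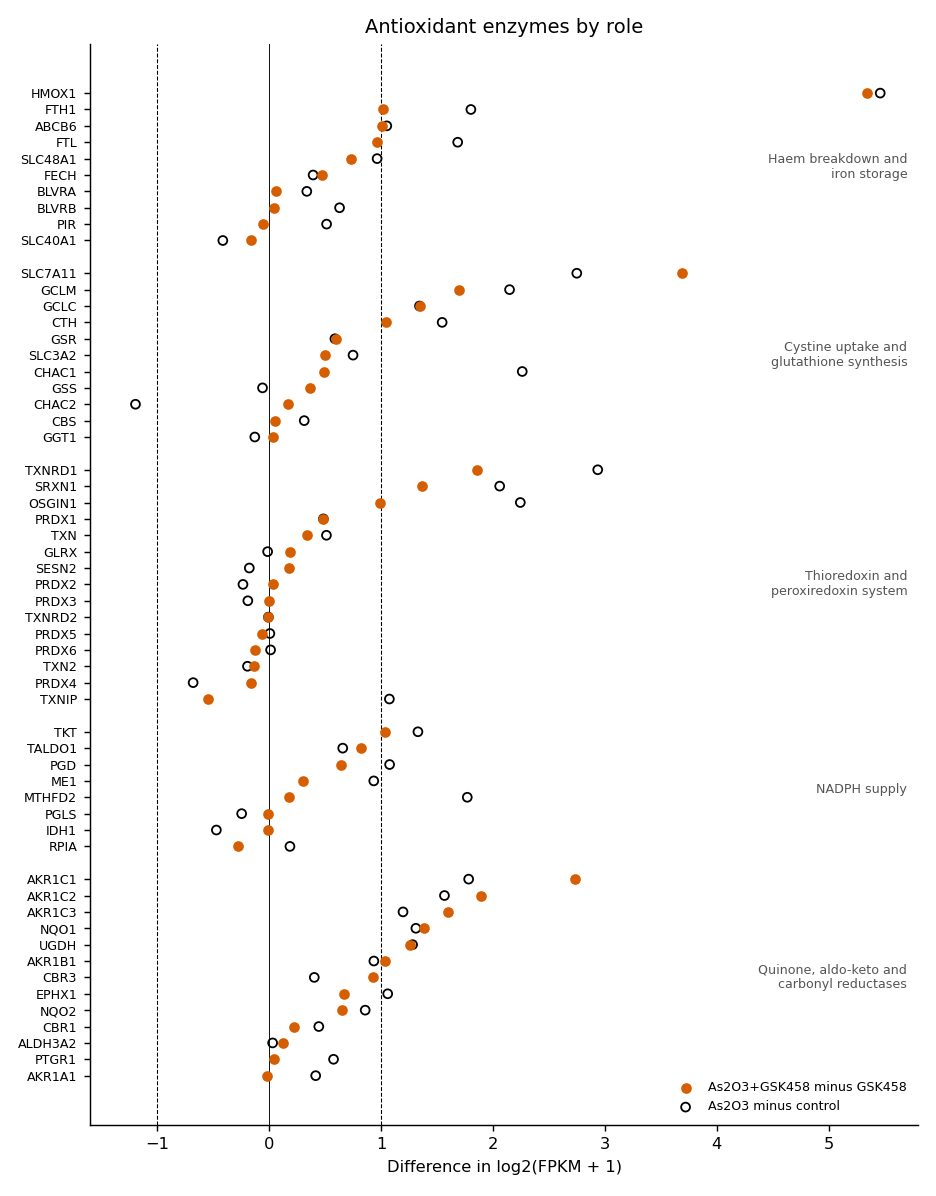
Difference in log2(FPKM + 1) for antioxidant genes by role, of which a few are not shown, with filled points for As2O3+GSK458 minus GSK458, open points for As2O3 minus control and dashed lines at 2-fold. HMOX1 shows 5.34 and 5.46, SLC7A11 lies further right with GSK458 (3.68) than without (2.75), and TXNRD1 lies further left (1.86 and 2.94).

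Promoter windows of RefSeq (GRCh38.p14, from 250 bases before to 50 after each start) were searched for the core of the antioxidant response element, TGACNNNGC, on both strands. The letters occurred in 13.3% of all 35116 windows and in some window of 19.8% of the 9232 compared genes that had one. Of the 59 antioxidant genes 48 had a window and 14 of these (29.2%) held the letters. Among the 17 at least 2-fold higher, 13 had a window and 3 held them (23.1%), namely TXNRD1, GCLM and ABCB6. That share was near the 19.8% of compared genes, and the windows of NQO1, GCLC and SRXN1 were among those without the letters. HMOX1, SLC7A11 and FTH1 were among the genes with no window in the table. The windows of TXNRD1 (chr12:104215529-104215828, + strand) and GCLM (chr1:93909381-93909680, − strand) are shown as the promoters of this group with the widest gaps that held a match, 5′ to 3′ in the direction of transcription, with matches in capitals.
TXNRD1: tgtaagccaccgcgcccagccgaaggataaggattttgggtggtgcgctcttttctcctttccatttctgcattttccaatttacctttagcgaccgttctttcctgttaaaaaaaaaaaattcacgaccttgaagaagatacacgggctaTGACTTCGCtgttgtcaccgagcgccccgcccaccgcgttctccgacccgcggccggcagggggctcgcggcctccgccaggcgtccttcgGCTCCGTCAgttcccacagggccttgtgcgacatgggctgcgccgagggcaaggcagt
GCLM: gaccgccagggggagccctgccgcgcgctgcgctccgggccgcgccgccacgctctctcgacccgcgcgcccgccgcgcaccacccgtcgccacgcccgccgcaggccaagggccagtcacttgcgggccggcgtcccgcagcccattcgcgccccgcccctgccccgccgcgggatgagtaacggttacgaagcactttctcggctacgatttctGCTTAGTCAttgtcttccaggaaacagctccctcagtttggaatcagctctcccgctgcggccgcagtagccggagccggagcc
The matches of TXNRD1 begin 99 and 8 bases before the start, and the match of GCLM 34 bases before it. A match of letters says nothing on whether a factor was bound there.

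The regulators of NRF2 differed much less than the enzymes. Of 12 genes 11 were higher, none reached 2-fold and the median was 0.12, whereas 6 were at least 2-fold higher with As2O3 than in the control and the median there was 0.83. NFE2L2, the gene of NRF2 itself, had 74.8 FPKM with As2O3+GSK458 and 73.0 FPKM with GSK458. MAFF, a small MAF partner, had 29.9 FPKM with As2O3+GSK458, 27.1 FPKM with GSK458, 40.4 FPKM with As2O3 and 7.19 FPKM in the control. Only the control was low for MAFF, and the other 3 libraries lay within 27.1 to 40.4 FPKM. SQSTM1, the autophagy receptor p62 that binds KEAP1, stood at 279.9 FPKM with As2O3+GSK458 and 161 FPKM with GSK458, and TRIM16L, which shares sequence with TRIM16, at 15.6 FPKM with As2O3+GSK458 and 8.40 FPKM with GSK458. Glutathione transferases and export pumps were not shifted as a list, with 8 of 14 higher, none at 2-fold and a median of 0.01. Their largest differences were 0.58 for the efflux pump ABCC3 and 0.41 for the microsomal transferase MGST1 among genes of at least 5 FPKM.

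Metal-binding and protein-folding genes were near level. MT2A, a metallothionein, had 473 FPKM with As2O3+GSK458 and 219.9 FPKM with GSK458, and was the 1 gene at least 2-fold higher of 8 metallothionein and zinc genes compared, 7 of which were higher (median 0.11). Metallothioneins share sequence, so single values are uncertain. Cytosolic heat shock proteins had a median of 0.10 with 11 of 16 higher. CRYAB stood at 94.2 FPKM with As2O3+GSK458 and 46.6 FPKM with GSK458, and the HSP110 chaperone HSPH1 at 6.69 FPKM with As2O3+GSK458 and 4.26 FPKM with GSK458. ER chaperones had a median of 0.05 with 12 of 19 higher, the largest differences being 0.47 for the stress factor XBP1 and 0.31 for DNAJC3, a co-chaperone that inhibits the kinase PERK.

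The ATF4 amino acid response, which uncharged tRNA and ER stress switch on, had few genes far apart in the presence of GSK458. Of its 30 genes 20 were higher, 2 at least 2-fold and the median was 0.16, against 29 higher, 16 at least 2-fold and a median of 1.04 between As2O3 and control. In 28 of the 30 the difference was smaller with GSK458, but differences over all genes were also narrower with GSK458, so this count is not particular to the list. DDIT3, a transcription factor of prolonged stress, had 13.7 FPKM with As2O3+GSK458, 11.1 FPKM with GSK458, 72.7 FPKM with As2O3 and 9.26 FPKM in the control. ASNS, asparagine synthetase, had 10.2 FPKM with As2O3+GSK458, 8.41 FPKM with GSK458, 67.8 FPKM with As2O3 and 16.1 FPKM in the control. For both genes only the As2O3 library was high. The 2 members at least 2-fold higher were CTH, given above, and CEBPB, a transcription factor, with 20.4 FPKM with As2O3+GSK458 and 7.77 FPKM with GSK458. Targets of p53 were split, with 10 of 26 higher and a median of −0.08, a sign that turned under 1 other setting. GDF15, a secreted stress protein, was the 1 at least 2-fold higher, with 652 FPKM with As2O3+GSK458 and 300.5 FPKM with GSK458.

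Of the signalling lists, ERK output was near level, AP-1 factors were mostly higher and NF-kB and cytokine genes mostly lower. Among genes of ERK output 9 of 26 were higher, with a median of −0.05, which changed sign under 3 settings, against 0.79 between As2O3 and control. DUSP5, a nuclear phosphatase of ERK, was its 1 gene at least 2-fold higher, at 83.6 FPKM with As2O3+GSK458 and 31.5 FPKM with GSK458. Without GSK458 the gap of DUSP5 was wider, with 174 FPKM with As2O3 and 10.8 FPKM in the control. AP-1 and immediate early factors were higher in 14 of 18 genes with a median of 0.23 and none at 2-fold. In all 18 the difference was smaller than without GSK458 (median 1.11), where differences over all genes were also wider. The nuclear receptor NR4A1 stood at 21.8 FPKM with As2O3+GSK458 and 10.5 FPKM with GSK458, and the AP-1 subunit FOSL1 differed by 0.91. NF-kB and cytokine genes were lower in 18 of 25, with a median of −0.20 against 0.64 without GSK458. CCL2, a chemokine for monocytes, was at least 2-fold lower, with 1.38 FPKM with As2O3+GSK458 and 5.82 FPKM with GSK458, and was also lower with As2O3 at 0.822 FPKM than in the control at 4.88 FPKM. SOD2, the mitochondrial superoxide dismutase, ran the other way from most of that list, at 617 FPKM with As2O3+GSK458 and 357 FPKM with GSK458.

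Genes of mitosis were higher almost without exception, from a low level. Over 3 lists of mitotic kinases, kinetochore and spindle proteins, and chromosome proteins, 87 of 89 genes were higher, 2 lower and 15 at least 2-fold higher, with a median of 0.64. Their median level was 5.39 FPKM with As2O3+GSK458, 2.99 FPKM with GSK458, 25.5 FPKM with As2O3 and 20.3 FPKM in the control. Of the 89 genes 88 were below the control and all 89 below As2O3, and 86 lay between the GSK458 and control values. MKI67, the proliferation marker Ki-67, had 7.21 FPKM with As2O3+GSK458, 2.08 FPKM with GSK458, 33.6 FPKM with As2O3 and 31.7 FPKM in the control. The ratio of MKI67 was 3.46 with GSK458 present and 1.06 without, and its difference of 1.41 with GSK458 became 0.79 with 5 FPKM added. At these levels the pseudocount weighs on the count, and with 0.1 FPKM added 39 of the 89 were at least 2-fold higher, with 5 FPKM none.

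Mitotic kinases, cyclins and regulators of the anaphase-promoting complex were higher in 27 of 28 genes, with a median of 0.72 (0.26 between As2O3 and control). PLK1, a kinase of mitotic entry and spindle assembly, had 8.69 FPKM with As2O3+GSK458, 3.04 FPKM with GSK458, 49.8 FPKM with As2O3 and 37.99 FPKM in the control. FOXM1, a transcription factor of late cell cycle genes, had 5.41 FPKM with As2O3+GSK458, 1.65 FPKM with GSK458, 17.97 FPKM with As2O3 and 19.98 FPKM in the control. CDC20, which activates the anaphase-promoting complex, stood at 14.8 FPKM with As2O3+GSK458 and 6.29 FPKM with GSK458. In each of these genes the GSK458 library was the lowest of the 4 and the As2O3+GSK458 library the next. PTTG1, securin, was the 1 lower gene at −0.22.

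Every kinetochore, spindle and cytokinesis gene of the 44 compared was higher, and 10 passed 2-fold, for a median of 0.79 and a median ratio of 2.18. BIRC5, survivin, a subunit of the chromosomal passenger complex, had 5.50 FPKM with As2O3+GSK458 and 1.81 FPKM with GSK458. ZWINT, a kinetochore protein, had 10.5 FPKM with As2O3+GSK458 and 4.37 FPKM with GSK458, while it was lower with As2O3 at 35.2 FPKM than in the control at 48.3 FPKM. The kinesin KIF2C, which depolymerises microtubule ends, stood at 5.39 FPKM with As2O3+GSK458 and 2.16 FPKM with GSK458, and the spindle protein DLGAP5 at 5.13 FPKM with As2O3+GSK458 and 2.03 FPKM with GSK458. Chromosome proteins were higher in 16 of 17 with a median of 0.45. TOP2A, the topoisomerase that untangles sister chromosomes, had 13.9 FPKM with As2O3+GSK458 and 5.39 FPKM with GSK458. Of the 15 genes at least 2-fold higher in the 3 lists, 11 were also higher with As2O3 than in the control and none by 2-fold.

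**Figure D3:**
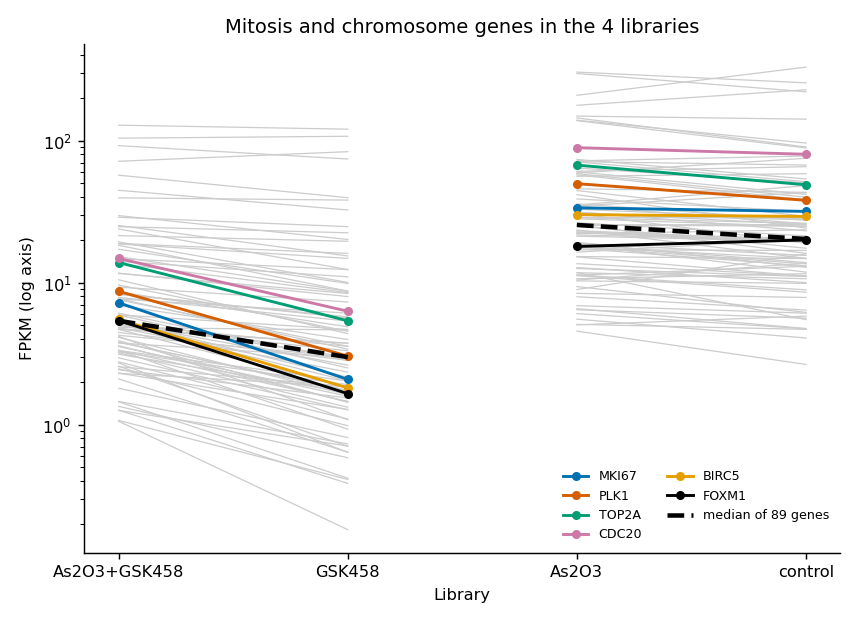
FPKM on a log axis of the 89 mitosis and chromosome genes in the 4 libraries (grey, 1 line a gene and pair of libraries), with 6 genes in colour and the median dashed. The median is 5.39 FPKM with As2O3+GSK458 and 2.99 FPKM with GSK458, both far below 25.5 FPKM with As2O3 and 20.3 FPKM in the control.

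The cell cycle homology region, TTTGAA, to which the MuvB core of DREAM and MYB-MuvB binds, was searched in the same RefSeq windows on both strands. It occurred in 15.2% of all windows and in some window of 13.0% of compared genes. Of the 89 mitosis and chromosome genes 70 had a window and 49 of these (70.0%) held it. Of the 15 at least 2-fold higher 11 had a window and 9 held it (81.8%), while KIF20A and KIF2C did not, and BIRC5, CENPM, FAM64A and FOXM1 had no window. The letters CCAAT, the site of the factor NF-Y, occurred in 34.6% of all windows, in 43.6% of compared genes and in 53 of the 70 (75.7%). The windows of MKI67 (chr10:128126374-128126673, − strand), PLK1 (chr16:23678639-23678938, + strand) and TOP2A (chr17:40417847-40418146, − strand) are shown as promoters of a proliferation marker, a kinase and a chromosome enzyme, 5′ to 3′ in the direction of transcription, with matches of TTTGAA in capitals.
MKI67: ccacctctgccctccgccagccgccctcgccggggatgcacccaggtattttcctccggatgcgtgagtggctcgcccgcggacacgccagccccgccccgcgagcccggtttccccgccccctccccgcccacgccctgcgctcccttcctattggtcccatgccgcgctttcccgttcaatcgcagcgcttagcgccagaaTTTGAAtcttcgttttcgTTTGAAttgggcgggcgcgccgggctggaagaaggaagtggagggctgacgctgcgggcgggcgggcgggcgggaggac
PLK1: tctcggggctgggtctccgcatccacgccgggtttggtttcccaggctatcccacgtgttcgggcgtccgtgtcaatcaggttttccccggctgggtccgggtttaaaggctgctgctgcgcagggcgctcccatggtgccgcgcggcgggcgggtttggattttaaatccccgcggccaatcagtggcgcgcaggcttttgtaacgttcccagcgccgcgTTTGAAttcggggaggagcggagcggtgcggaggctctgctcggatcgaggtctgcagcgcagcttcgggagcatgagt
TOP2A: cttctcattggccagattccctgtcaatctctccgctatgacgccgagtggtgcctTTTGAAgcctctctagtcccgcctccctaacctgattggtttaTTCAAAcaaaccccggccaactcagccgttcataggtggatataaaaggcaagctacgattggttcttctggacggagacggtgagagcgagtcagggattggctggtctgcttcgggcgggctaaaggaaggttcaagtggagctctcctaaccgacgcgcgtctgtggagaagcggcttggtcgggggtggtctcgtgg
Matches begin 47 and 29 bases before the start in MKI67, 29 bases before it in PLK1, and 194 and 151 bases before it in TOP2A. The second match of MKI67 overlaps a CCAAT match on the other strand.

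S phase genes were closer to level than mitotic genes. Of 36 genes of replication licensing and the fork 30 were higher and 6 lower, none by 2-fold, with a median of 0.21 (−0.13 between As2O3 and control). The helicase subunit MCM5 had 22.3 FPKM with As2O3+GSK458 and 14.3 FPKM with GSK458. MCM7, another subunit of the same helicase, was lower, with 19.6 FPKM with As2O3+GSK458 and 34.4 FPKM with GSK458. Deoxyribonucleotide enzymes had a median of 0.14 with 7 of 10 higher, led by thymidylate synthase TYMS at 15.4 FPKM with As2O3+GSK458 and 8.95 FPKM with GSK458, then thymidine kinase TK1 at 0.34. Homologous recombination and Fanconi genes had a median of 0.29 with 20 of 24 higher, among them RMI2 (0.64), of the complex that dissolves crossovers, and the recombination protein XRCC3 (0.46). G1 cyclins, CDK inhibitors and E2F factors had a median of 0.09 with 16 of 25 higher, led by the phosphatase CDKN3 (0.82) and cyclin D3, CCND3 (0.58). All 6 replication-dependent histone genes compared were lower, with a median of −0.54. Of these HIST1H2AC had 6.09 FPKM with As2O3+GSK458 and 11.0 FPKM with GSK458, and the linker histone HIST1H1C had 14.4 FPKM with As2O3+GSK458 and 22.3 FPKM with GSK458. Most histone mRNA lacks a poly(A) tail, so poly(A)-selected libraries measure it only in part.

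Ribosomal protein genes were a little lower as a body. Of 73 compared, 70 were lower and 3 higher, with a median of −0.21 against 0.08 between As2O3 and control, and the median lay between −0.21 and −0.16 under all settings tried. These genes were the most abundant list, with a summed level of 142389 FPKM with As2O3+GSK458 and 165078 FPKM with GSK458, 118129 FPKM with As2O3 and 112377 FPKM in the control. RPL12 had 2854 FPKM with As2O3+GSK458 and 3641 FPKM with GSK458. RPL21 was the 1 gene at least 2-fold higher, at 431 FPKM with As2O3+GSK458 and 181 FPKM with GSK458, a value that its many pseudogenes make uncertain. Ribosome biogenesis genes were lower in 25 of 32 with a median of −0.12, the largest being −0.54 for the small-subunit factor NOP14 and −0.36 for RRS1. Nuclear genes of oxidative phosphorylation were lower in 33 of 38 with a median of −0.09, with −0.40 for UQCRB of complex III and −0.33 for NDUFB10 of complex I.

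Among lists of energy and lipid metabolism only glycolysis and hypoxia genes were mostly higher, in 28 of 31, with a median of 0.25 (0.22 between As2O3 and control). In the As2O3+GSK458 library 22 of the 31 were still below the control and 29 below As2O3. For 19 of the 31 the value lay between those of GSK458 and control. SLC2A1, the glucose transporter GLUT1, had 14.4 FPKM with As2O3+GSK458 and 5.91 FPKM with GSK458. The vasodilator peptide gene ADM had 5.13 FPKM with As2O3+GSK458 and 2.05 FPKM with GSK458. Cholesterol synthesis was near level (11 of 25 higher, median −0.04, a sign that turned under 2 settings), with −0.33 for DHCR7, a reductase of a late sterol step. Fatty acid synthesis had a median of 0.03 with 8 of 15 higher, with 0.38 for the desaturase-family gene FADS3 and −0.16 for the desaturase SCD5. Proteasome genes had a median of 0.05 with 25 of 36 higher, led by the regulatory subunits PSMD1 (0.32) and PSMD11 (0.29). Lysosome and autophagy genes had a median of 0.06 with 22 of 36 higher, led by SQSTM1, given above, and the lysosomal channel MCOLN1 (0.61).

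The pathway that GSK458 inhibits showed no wide gaps when arsenic was added. PI3K, AKT and mTOR components had a median of −0.02 with 14 of 31 higher and none at 2-fold. Among its genes of at least 5 FPKM the largest differences were 0.41 for TSC1, a brake on mTOR, and −0.39 for PIK3R3, a regulatory subunit of PI3K. Targets of FOXO, the factors that AKT holds out of the nucleus, had a median of 0.10 with 19 of 27 higher. Besides TXNIP, BCL2L11, the death-promoting BCL2 relative BIM, had 32.8 FPKM with As2O3+GSK458 and 22.8 FPKM with GSK458. The BCL2 family and death receptors had a median of 0.05 with 19 of 30 higher, including 0.39 for CFLAR, an inhibitor of caspase 8. Receptor tyrosine kinases and ligands had a median of 0.01 with 11 of 21 higher. Their widest gap was EREG, the growth factor epiregulin, at 12.8 FPKM with As2O3+GSK458 and 20.5 FPKM with GSK458, then the receptor FGFR2 at −0.48. The median of the PI3K list changed sign under 3 settings and that of the receptor list under 2. Interferon-stimulated genes had a median of −0.08 with 6 of 17 higher, with 0.62 for the factor IRF7 and −0.52 for BST2, a membrane tether of viruses.

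Extracellular matrix genes and integrins were mostly lower, in 28 of 31, with none at 2-fold and a median of −0.20 (−0.03 between As2O3 and control). SPARC, a secreted collagen-binding protein, had 103 FPKM with As2O3+GSK458 and 187 FPKM with GSK458. COL12A1, a collagen chain, had 5.81 FPKM with As2O3+GSK458 and 11.3 FPKM with GSK458. The urokinase PLAU, which starts matrix proteolysis, was lower at 134 FPKM with As2O3+GSK458 than at 218 FPKM with GSK458, whereas with As2O3 it was higher at 379 FPKM than in the control at 161 FPKM.

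**Figure D4:**
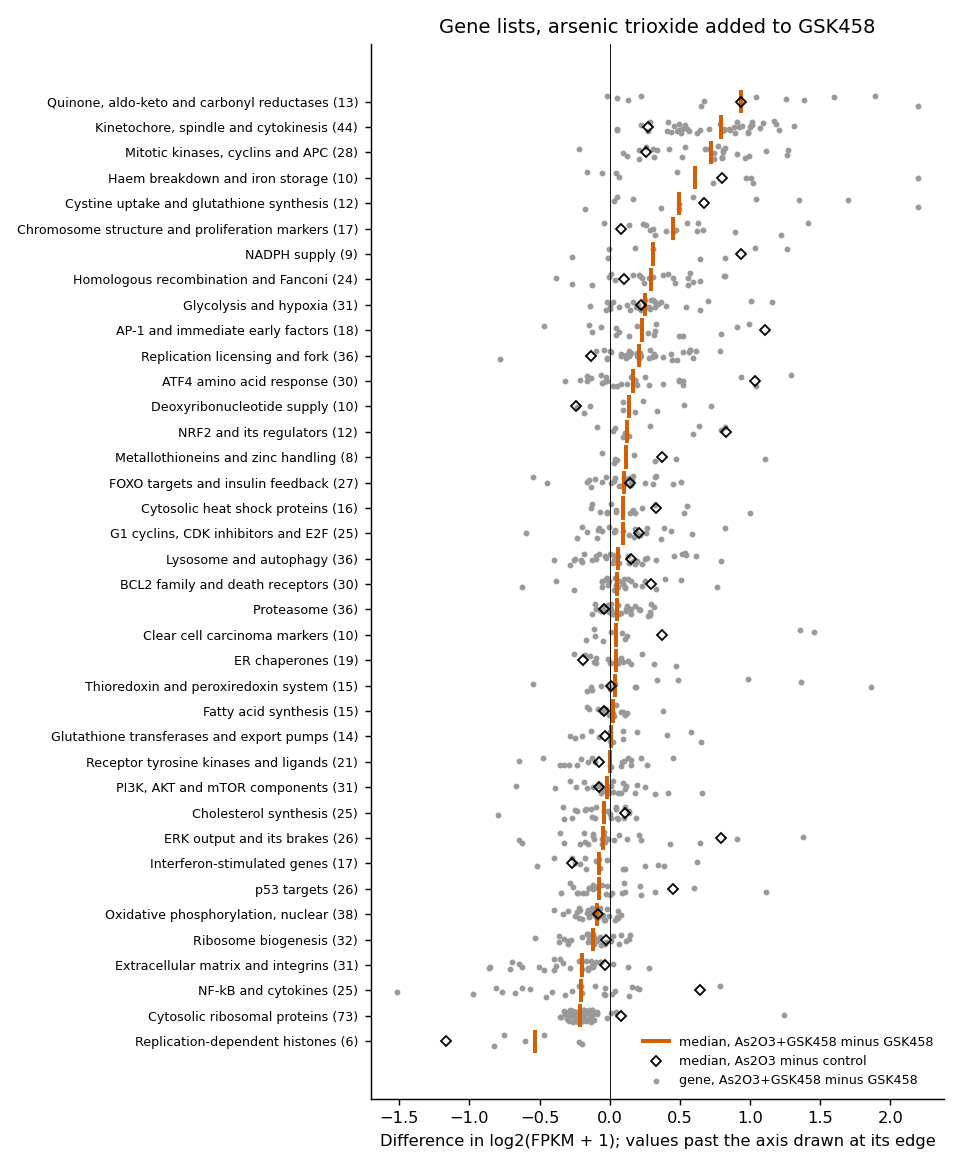
Difference in log2(FPKM + 1), As2O3+GSK458 minus GSK458, for the genes of each list with at least 6 genes compared (grey points, number in brackets), with the list median in orange and the median between As2O3 and control as an open diamond. Reductase, kinetochore and mitotic kinase lists sit at the top with medians of 0.93, 0.79 and 0.72, and histones and ribosomal proteins at the bottom with −0.54 and −0.21, while the ATF4, ERK, AP-1 and NF-kB diamonds lie well to the right of their orange bars.

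The labelled cell type was checked against its markers. PAX8, KRT8 and KRT18 were above 80 FPKM in every library, whereas NAPSA was near 1 FPKM and EPCAM below 2 FPKM throughout. Of 10 clear cell markers compared 6 were higher with a median of 0.05, and 2 of them at least 2-fold. These were TFPI2, a protease inhibitor, at 301 FPKM with As2O3+GSK458 and 109 FPKM with GSK458, and SPP1, the secreted protein osteopontin, at 1947 FPKM with As2O3+GSK458 and 761 FPKM with GSK458. Most markers of other cells were at or near 0, with COL1A1 and CD68 as exceptions, and COL1A2 at 1.29 FPKM with As2O3 and 1.45 FPKM in the control. The 8 fibroblast markers summed to 2.59 FPKM with As2O3+GSK458 and 2.78 FPKM with GSK458, of which COL1A1 held 1.58 FPKM with As2O3+GSK458 and 1.84 FPKM with GSK458, and COL3A1 and LUM were listed at 0 in all libraries. The 8 immune markers summed to 2.89 FPKM with As2O3+GSK458 and 1.77 FPKM with GSK458, most of it CD68 with 2.63 FPKM with As2O3+GSK458 and 1.12 FPKM with GSK458, and PTPRC, CD3E, CD2 and MS4A1 were listed at 0. The 6 endothelial markers summed to under 0.1 FPKM in each library.

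Other genes among the 15 highest were ALDH1L1, SPRY4-IT1 and those named above. ALDH1L1, a folate enzyme that oxidises formyl-tetrahydrofolate, had 11.3 FPKM with As2O3+GSK458, 1.91 FPKM with GSK458, 2.94 FPKM with As2O3 and 0.885 FPKM in the control. Only the library with both drugs exceeded 3 FPKM for ALDH1L1. SPRY4-IT1, a long noncoding RNA inside the SPRY4 gene, had 6.19 FPKM with As2O3+GSK458 and 1.22 FPKM with GSK458, and its value is uncertain because it overlaps that gene.

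The lower genes shared no list. EDN1, the vasoconstrictor peptide endothelin, had 1.28 FPKM with As2O3+GSK458, 5.64 FPKM with GSK458, 2.83 FPKM with As2O3 and 7.51 FPKM in the control. CYR61, a matricellular target of the YAP pathway, had 22.8 FPKM with As2O3+GSK458, 60.9 FPKM with GSK458, 54.6 FPKM with As2O3 and 45.0 FPKM in the control. CTDSP1, a small phosphatase of RNA polymerase II, had 33.5 FPKM with As2O3+GSK458, 78.1 FPKM with GSK458, 13.1 FPKM with As2O3 and 59.7 FPKM in the control. EDN1 and CTDSP1 were thus lower in both libraries with arsenic, each beside its own partner, while CYR61 was lower only in the pair with GSK458. The secreted defensin DEFB1 had 8.02 FPKM with As2O3+GSK458 and 19.0 FPKM with GSK458, complement C5 had 8.07 FPKM with As2O3+GSK458 and 18.7 FPKM with GSK458, and the natriuretic peptide gene NPPC had 2.52 FPKM with As2O3+GSK458 and 7.29 FPKM with GSK458. The secreted protein EGFL7 and the potassium channel partner KCNIP1 differed by −1.13 and −1.15, and ENHO, which encodes the peptide adropin, by −1.02. Of the noncoding and composite symbols among the 15 lowest, PARD3-AS1 (−1.61), NR2F2-AS1 (−1.14) and the readthrough ATP6V1G2-DDX39B (−1.31) overlap other genes and are uncertain, PCAT6 (−1.02) is noncoding, and LOC100288798 (−1.11) carries no name in the table.

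Set beside the pair without GSK458, the 60 higher genes kept their direction in 51 cases, where 51.3% of all genes compared were above 0, and were at least 2-fold higher in 28, which is 46.7% of the 60 and 11.8% of the 238 genes at least 2-fold higher with As2O3 than in the control. The 22 lower genes kept their direction in 15 cases, where 48.7% of all genes were below 0, and were at least 2-fold lower in 7, or 31.8% of the 22 and 4.43% of the 158. By group, 16 of the 17 antioxidant genes were at least 2-fold higher in both pairs, none of the 15 mitosis and chromosome genes, and 12 of the 28 other higher genes. HJURP, a centromere chaperone that stands in no list and was named after its values were seen, was among these 12, at 1.17 with GSK458 and 1.14 without. Only NARR was at least 2-fold apart in opposite directions, a symbol listed at 0 in the GSK458 and As2O3 libraries.

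**Figure D5:**
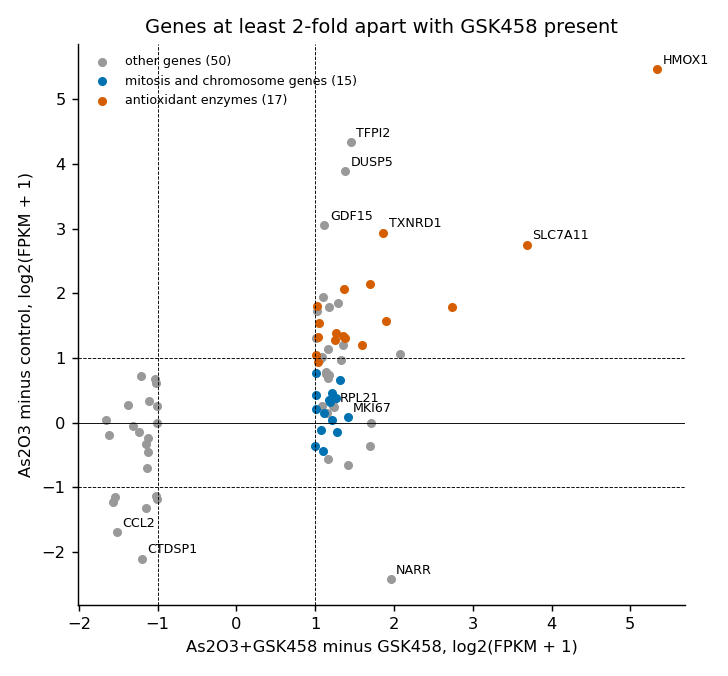
Difference in log2(FPKM + 1) between As2O3 and control against that between As2O3+GSK458 and GSK458, for the 82 genes at least 2-fold apart in the pair with GSK458, with dashed lines at 2-fold. Antioxidant genes lie above the upper dashed line but for AKR1B1 at 0.94, and the mitosis and chromosome genes lie between the dashed lines.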

How the data were processed

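RNA from 4 TOV21G cultures, 1 a group, was measured by sequencing, with libraries from a stranded poly(A) mRNA kit per the labels' protocols. The authors deposited FPKM values for 26255 gene symbols in 4 columns, each matched to a sample title, beside 2 columns with neither name nor values. The submitters' processing notes list Cuffdiff 2.2.1, TopHat2 2.1.1, SAMtools 0.1.18 and Bowtie2 2.2.8 and the genome hg19, with no roles. Annotation, strand setting and multimapping are not given in the sources consulted, so genes with paralogs, pseudogenes, overlaps or readthroughs are uncertain. Total counts cannot be had from FPKM, so depth is unknown and no interval was computed. An exact 0 can be a failed estimate.

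Values were used as deposited. Differences of log2(FPKM + 1) were computed in Python 3.11.15 with pandas 2.3.3 and numpy 2.4.6 for genes that averaged 1 FPKM or more across the libraries, without small RNA symbols, and figures were drawn with matplotlib 3.10.9. With 1 library a group nothing was tested, so genes at least 2-fold apart were counted, and 42 gene lists were described by counts and medians beside all genes. The counting step was run on a copy of the GSK458 library with known changes put into well-expressed genes and no noise. That checks the arithmetic only and says nothing on how reliable the counts are. Some genes stand in more than 1 list, and the symbols of the list of mitochondrially encoded transcripts were not analysed here.

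Among genes of at least 5 FPKM in either library of the pair, the text names the 15 highest and 15 lowest, up to 4 list members each way at least 2-fold apart (otherwise the 2 largest), genes 2-fold apart the opposite way without GSK458, and the markers HMOX1, SLC7A11 and MKI67. A few genes that it picks are left out of the text and figures. Other names are examples chosen after their values were seen. The members and lists were chosen with earlier results of these data known. Alternatives covered the pseudocount, the filter, the scaling, the fold threshold, small RNA symbols and the list mean. Promoter windows were taken from RefSeq on GRCh38.p14, matched by symbol, and no coordinate was moved between builds.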

Additional observations from a re-analysis of the deposited data

Results flagged for a closer look

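Gene groups and genes were looked at again where the pair with GSK458 and the pair without it ran in opposite directions by a list median of at least 0.2 in both pairs or, for genes that the naming rule picks, by at least 1.5-fold in both. Smaller opposite differences are left out. With 1 library in each group, none of these differences was tested. The NF-kB and cytokine list had a median of −0.20 for As2O3+GSK458 minus GSK458 and 0.64 for As2O3 minus control. EREG, the growth factor epiregulin, differed by −0.65 with GSK458 and by 1.59 without. PCAT6, a noncoding RNA, differed by −1.02 with GSK458 and by 0.61 without. NARR differed by 1.96 with GSK458 and by −2.42 without, from 2.89 FPKM with As2O3+GSK458 and 4.36 FPKM in the control, and it was listed at 0 in the GSK458 and As2O3 libraries, so no fold is given. NARR overlaps another gene, and its value is uncertain.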

How the results depend on the processing

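The count of genes at least 2-fold higher, 60, became 151 with a pseudocount of 0.1 FPKM, 22 with 5 FPKM, 117 with libraries rescaled to a sum of 1000000, and 248 at a threshold of 1.5-fold. The count at least 2-fold lower, 22, became 83, 2, 45 and 170 in the same order, 35 with no filter, 9 where genes had to average 5 FPKM, and 39 with small RNA symbols kept. Rescaling to 1000000 also enlarges values against the pseudocount, and rescaling to the mean sum, an alternative chosen after seeing the data, gave 70 higher and 16 lower. Of 558 values of 93 gene differences, none changed sign, and in 543 the fold behind the difference moved by less than 1.5-fold. That limit is wide beside most printed differences. BIRC5, at 1.21, still counted as within it at 0.62 with 5 FPKM added. The other 15 belonged to 11 genes, all under another pseudocount but for 1 value of NARR with libraries rescaled to 1000000. They were SLC7A11, AKR1C1, MKI67, FOXM1, ALDH1L1, SPRY4-IT1, NARR, CCL2, EDN1, PARD3-AS1 and ATP6V1G2-DDX39B. The kinetochore list median of 0.79 became 0.35 with 5 FPKM added. Medians within 0.1 of 0 changed sign in 5 lists (p53, ERK, cholesterol synthesis, PI3K and mTOR, receptor tyrosine kinases). Some of these changes came under the mean sum chosen after seeing the data. Of 418 list medians, 417 moved by less than 1.5-fold, a limit wider than most of the medians themselves and so hardly a test of them. The exception was the immune cell markers, 0.78 for CD68, the 1 gene compared, and 0.07 with no filter. The median of all genes in the pair with GSK458 reached at most 0.05 under any scaling. No paired analysis was possible because each group has 1 library, and for the same reason no library could be left out. The unknown depth limits genes of a few FPKM most, which includes most mitosis genes.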

Other observations

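The genes below were picked after their values were seen, and none was tested. TPM1, a tropomyosin, which runs along actin filaments, had 115 FPKM with As2O3+GSK458 and 189 FPKM with GSK458, and 64.1 FPKM with As2O3 and 89.6 FPKM in the control. TPM2, another tropomyosin, had 57.9 FPKM with As2O3+GSK458 and 104 FPKM with GSK458, and 59.4 FPKM with As2O3 and 65.8 FPKM in the control, so its gap was mostly in the pair with GSK458. CTGF, a matricellular relative of CYR61, had 13.9 FPKM with As2O3+GSK458 and 17.3 FPKM with GSK458, a narrower gap than that of CYR61.

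RIMKLB, a ligase that joins glutamate to N-acetylaspartate, had 224 FPKM with As2O3+GSK458 and 89.1 FPKM with GSK458, but 36.5 FPKM with As2O3 and 18.2 FPKM in the control. Thus its level was higher in both libraries with GSK458, and higher again in both pairs with arsenic. KYNU, kynureninase of tryptophan breakdown, had 9.11 FPKM with As2O3+GSK458 and 3.48 FPKM with GSK458, and 10.8 FPKM with As2O3 and 2.45 FPKM in the control. RBP4, the retinol carrier of blood, had 4.95 FPKM with As2O3+GSK458 and 0.819 FPKM with GSK458, and it was listed at 0 in the As2O3 and control libraries.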
